A study of Mus musculus with 11 samples.

Results

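Toll-like receptor 4 (TLR4), the receptor of macrophages and microglia for bacterial lipopolysaccharide and for several ligands of damaged tissue, signals through a small set of proteins that sit between the receptor and the kinases of inflammation. The genes of that set described here are 10 of the 36529 genes listed in the deposited count tables, found by their symbols: the co-receptors Cd14 and Ly96 (MD-2), the adaptors Tirap (Mal), Myd88, Ticam2 (TRAM) and Ticam1 (TRIF), and the IRAK family Irak4, Irak1, Irak2 and Irak3 (IRAK-M). They were taken by name as members of the pathway, with earlier results of these data known. CD14 hands lipopolysaccharide to the complex of TLR4 and MD-2. From the cell surface TIRAP brings MyD88 to the receptor, and MyD88 assembles IRAK4, IRAK1 and IRAK2 into a complex that passes the signal to TRAF6 and NF-kB, with IRAK-M holding the complex back. After the receptor is taken up, TRAM brings TRIF to it, and TRIF signals through TRAF3 and TBK1 to IRF3 and interferon beta.

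BV2 cells, a transformed mouse microglial line labelled as of C57BL/6 strain, received a fragment of human apolipoprotein E that holds residues 1 to 151 of the apoE4 form (nApoE4) or of the apoE3 form (nApoE3). The purpose was to compare the transcriptome following exposure to each fragment. In the nApoE4 experiment 3 samples were treated at 25 µg/mL for 5 h and 3 untreated samples were their controls, and in the nApoE3 experiment 2 samples were treated with the same dose for the same time and 3 untreated samples were theirs. RNA from the 11 samples was sequenced and reads were counted on genes.

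All groups share the cell line, the medium and the time of harvest. The fragments carried a histidine tag, and no group received a tagged protein other than apoE. The labels name a PBS vehicle while the study's methods speak of conditioned medium for untreated cells, so what the controls received is not known. Since each fragment was tested in its own experiment with its own controls, a difference between the fragments cannot be told apart from a difference between the experiments. In bulk RNA a lower level can come from fewer cells that carry a transcript or from less of it per cell, and these cannot be told apart either.

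Between 39732710 and 44162511 reads were counted on genes per library in the nApoE4 experiment and between 55809688 and 69768666 in the nApoE3 experiment, so that 3 counts correspond to 0.0430 to 0.0755 CPM (counts scaled to library size). Of 10 microglia and macrophage markers, 9 had a mean of at least 1 CPM in every group, with Aif1 near 0, and their summed level was 3311 to 4480 CPM per library. Of 6 markers of resident brain microglia 2 reached that level, and P2ry12 was at 0 counts in all libraries, where it lies within another annotated gene. Fibroblast markers summed to at most 0.390 CPM and lymphocyte markers to at most 1.76 CPM, and oligodendrocyte markers to 22.9 to 43.2 CPM, with Mog at 0. The sum of 6 astrocyte markers was higher in treated cells, at 6.88 to 7.89 CPM with nApoE4 against 1.36 to 1.56 in its controls and at 5.88 to 6.02 CPM with nApoE3 against 1.47 to 1.99. Most of it was Slc1a2, a glutamate transporter, at 6.43 and 4.37 CPM in the treated groups, while Gfap, Aqp4 and Gja1 were at or near 0 in all groups. The sum of 6 neuron markers was 5.32 to 6.34 CPM with nApoE4 against 1.95 to 2.61 in its controls, mostly Tubb3, and 1.47 to 1.48 CPM with nApoE3 against 1.12 to 1.41, with Gad1 and Snap25 near 0. The part of these cell types in the results below was not tested. Replicate 2 of the nApoE4 controls stood apart from replicates 1 and 3: the chi-square per gene between its counts and theirs was 25.8 and 47.9, against 7.85 between the other 2. Without that library, the members' log2 fold changes with nApoE4 moved by at most 0.14 and the same number was called, 9.

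All 10 genes were detected in every library and passed the filter on low counts in every comparison. With nApoE4, 7 of the 10 rose and 2 fell by edgeR's quasi-likelihood test (adjusted p under 0.05 over 14240 genes), where 57.2% of all genes tested were called, 28.6% up and 28.6% down. With nApoE3, 6 rose and 4 fell, where 67.7% of 14817 genes were called, 33.1% up and 34.6% down. The median log2 fold change of the 10 was 1.13 with nApoE4 and 0.92 with nApoE3, beside 0.0013 and -0.0026 for all genes. The treated and control samples did not overlap for 9 of the 10 genes with nApoE4 and for 10 of 10 with nApoE3, where the shares over all genes were 63.6% and 77.6%. A call alone therefore says little here, and the sizes and the values per sample are given for each of the 10.

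**Figure D1:**
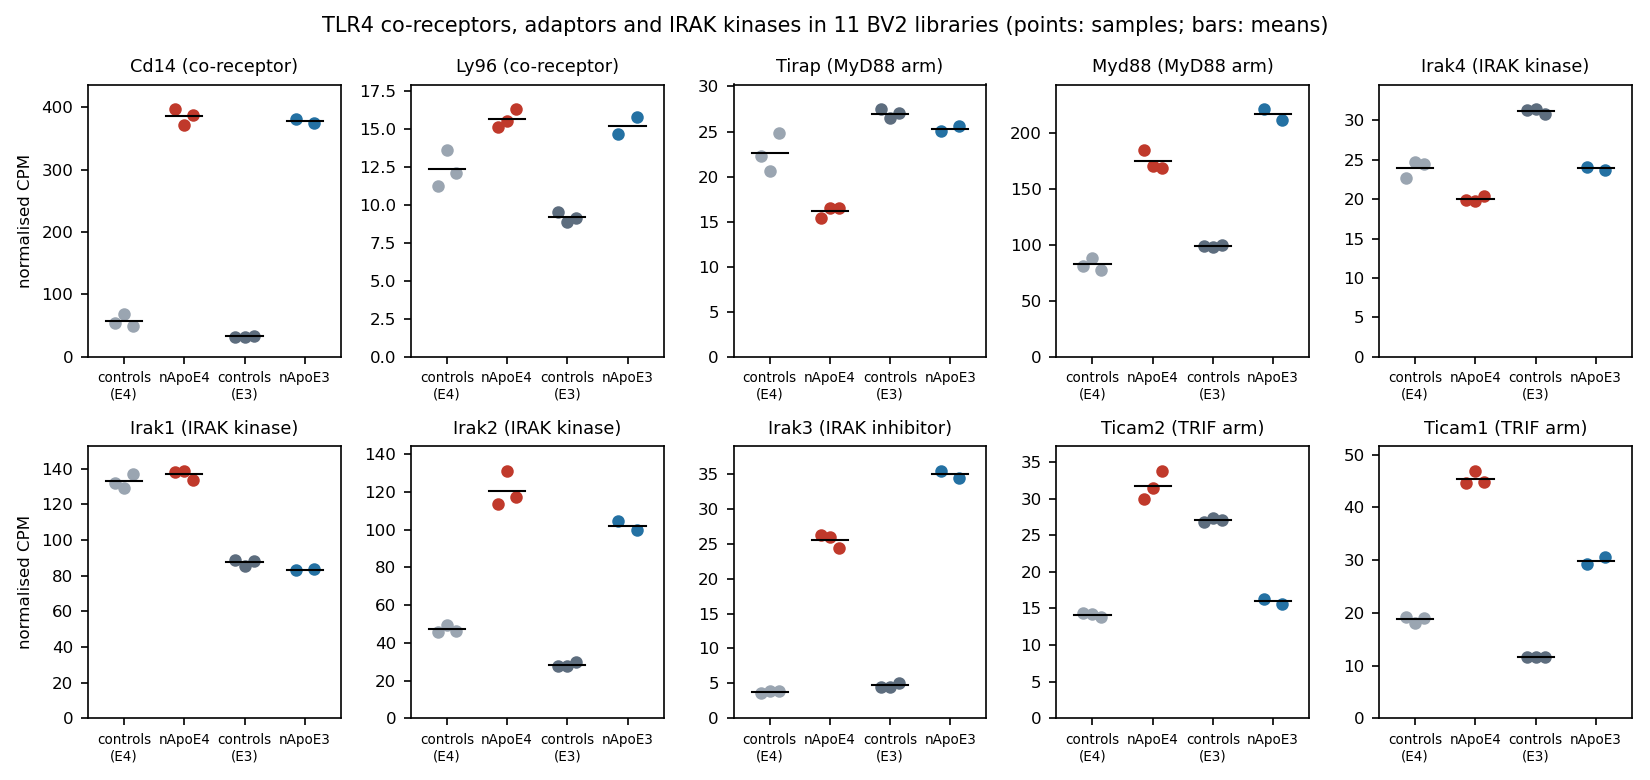
Normalised CPM (y axis, each panel from 0 on its own scale) of the 10 genes in each of the 11 libraries, by group on the x axis, with points for samples and black bars for group means. Cd14, Irak2, Irak3, Myd88 and Ticam1 sit higher in both treated groups, and Ticam2 sits at 29.9 to 33.8 with nApoE4 and at 15.6 to 16.3 with nApoE3, above and below its controls.

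Among the co-receptors, Cd14 (chromosome 18, 36725067 to 36726798, minus strand, GRCm38) had the largest response of the 10 with nApoE3 and, level with Irak3, with nApoE4. Its normalised level was 54.3, 68.5 and 49.5 CPM in the controls for nApoE4 and 397, 372 and 388 CPM with nApoE4. In the controls for nApoE3 it was 32.4, 31.3 and 34.1 CPM and with nApoE3 it was 381 and 375 CPM. Both treated groups therefore reached the same range, from control levels that differed. Cd14 rose 6.74-fold with nApoE4 (log2 fold change 2.75, SE 0.11, n = 3 and 3, edgeR adjusted p = 3.88e-08) and 11.5-fold with nApoE3 (3.53, SE 0.032, n = 2 and 3, edgeR adjusted p = 1.08e-15). These responses placed it above 97.6% and 98.5% of all genes tested.

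Ly96 (chromosome 1, 16688051 to 16709611, plus strand) encodes MD-2, the part of the receptor complex that holds the lipid. It changed far less. It stood at 11.3, 13.7 and 12.1 CPM in the controls for nApoE4 and at 15.1, 15.5 and 16.3 CPM with nApoE4. The nApoE3 experiment gave 9.52, 8.92 and 9.17 CPM in the controls and 14.7 and 15.8 CPM with the fragment. The treated samples were above their own controls in both experiments, by 1.27-fold with nApoE4 (log2 0.35, SE 0.086, edgeR adjusted p = 0.00671) and 1.65-fold with nApoE3 (log2 0.72, SE 0.056, edgeR adjusted p = 1.92e-07). As for Cd14, the treated ranges of both fragments overlapped.

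The receptor itself, Tlr4, went the other way. Its level was 61.7, 60.2 and 60.9 CPM in the controls for nApoE4 and 21.3, 19.9 and 20.5 CPM with nApoE4. It was 64.5, 63.2 and 65.7 CPM in the controls for nApoE3 and 36.5 and 38.1 CPM with nApoE3. Tlr4 thus fell with both fragments while both of its co-receptors rose, with log2 fold changes of -1.56 (SE 0.057, edgeR adjusted p = 1.75e-08) and -0.80 (SE 0.035, edgeR adjusted p = 8.15e-10).

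In the MyD88 arm the adaptors moved apart. Myd88 (chromosome 9, 119335934 to 119341411, minus strand), the hub adaptor of most Toll-like and interleukin-1 receptors, was at 81.3, 88.5 and 77.8 CPM in the controls for nApoE4 and at 185, 171 and 169 CPM with nApoE4. With nApoE3 it was at 221 and 212 CPM against 98.7, 98.5 and 99.8 CPM. Every treated sample was above every control of either experiment. The rise was 2.13-fold (log2 1.09, SE 0.069, edgeR adjusted p = 7.41e-07) and 2.18-fold (log2 1.12, SE 0.026, edgeR adjusted p = 2.00e-12). An exonic 11.4% of Myd88 overlaps Acaa1a on the opposite strand, and the strand setting of the counting was not stated.

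Tirap (chromosome 9, 35184551 to 35200291, minus strand), the bridging adaptor that carries MyD88 to TLR4, did not share the rise. It was at 22.2, 20.6 and 24.9 CPM in the controls for nApoE4 and at 15.4, 16.6 and 16.5 CPM with nApoE4, a fall to below every control. The nApoE3 experiment held 27.5, 26.4 and 27.0 CPM in the controls and 25.1 and 25.6 CPM with the fragment. The fall was 1.39-fold with nApoE4 (log2 -0.48, SE 0.084, edgeR adjusted p = 9.14e-04). With nApoE3 the difference was small (log2 -0.10, SE 0.039, edgeR adjusted p = 0.0385) and it failed the test in 9 of 11 alternative settings, among them DESeq2 and leaving out any of 4 of the 5 libraries. Reads of Gm39318 and Srpr, on the opposite strand, overlap 10.3% of its exons.

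Within the IRAK family, Irak4 (chromosome 15, 94543643 to 94581815, plus strand), the kinase that MyD88 recruits first, was at 22.7, 24.8 and 24.4 CPM in the controls for nApoE4 and at 19.9, 19.8 and 20.4 CPM with nApoE4. It was at 31.3, 31.4 and 30.8 CPM in the controls for nApoE3 and at 24.1 and 23.7 CPM with nApoE3. No treated sample reached its own controls, and Irak4 fell 1.19-fold with nApoE4 (log2 -0.25, SE 0.063, edgeR adjusted p = 0.00646) and 1.31-fold with nApoE3 (log2 -0.39, SE 0.037, edgeR adjusted p = 1.33e-06).

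Irak1 (chromosome X, 74013914 to 74023918, minus strand), the kinase that IRAK4 activates, was the member that moved least. It was at 132, 129 and 137 CPM in the controls for nApoE4 and at 138, 139 and 134 CPM with nApoE4, ranges that overlap. In the nApoE3 experiment it was at 89.0, 85.7 and 88.5 CPM in the controls and at 83.2 and 83.7 CPM with the fragment. The log2 fold change with nApoE4 was 0.049 (95% interval -0.076 to 0.17, edgeR adjusted p = 0.478). With nApoE3 it was -0.079 (SE 0.029, edgeR adjusted p = 0.0275), and 7 of 11 alternatives, among them leaving out any of 4 of the 5 libraries, lost this call. The controls of the experiments differed by more than either response, by -0.62 on the log2 scale. Mir718 and Mir5132, on the same strand, overlap 1.92% of the exons of Irak1.

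Irak2 (chromosome 6, 113638467 to 113695026, plus strand), a kinase that keeps the TRAF6 signal going at later times, rose strongly. Its level was 45.7, 49.7 and 46.3 CPM in the controls for nApoE4 and 114, 131 and 117 CPM with nApoE4. It was 28.0, 27.7 and 29.9 CPM in the controls for nApoE3 and 104 and 99.8 CPM with nApoE3. The groups lay far apart, at 2.57-fold with nApoE4 (log2 1.36, SE 0.071, edgeR adjusted p = 2.04e-07) and 3.57-fold with nApoE3 (log2 1.84, SE 0.038, edgeR adjusted p = 6.76e-13). Gm43963, on the opposite strand, overlaps 6.13% of its exons.

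Irak3 (chromosome 10, 120141648 to 120202130, minus strand) encodes IRAK-M, an inhibitor of the IRAK complex that macrophages make after a Toll-like receptor signal. It had the lowest level of the 10 per exonic length in untreated cells and one of the largest responses. Its level was 3.64, 3.88 and 3.88 CPM in the controls for nApoE4 and 26.3, 25.9 and 24.4 CPM with nApoE4. In the nApoE3 experiment the values were 4.55, 4.49 and 5.11 CPM in the controls and 35.4 and 34.4 CPM with the fragment. The lowest treated sample was above every control of either experiment. The rise was 6.74-fold with nApoE4 (log2 2.75, SE 0.078, edgeR adjusted p = 3.57e-09) and 7.39-fold with nApoE3 (log2 2.89, SE 0.055, edgeR adjusted p = 3.58e-13). The inhibitor therefore rose more than any of the 3 kinases of the family in both experiments, as a size and not as a tested difference between genes. Tmbim4 and Gm47009, on the opposite strand, overlap 6.83% of its exons.

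In the TRIF arm, Ticam1 (chromosome 17, 56269319 to 56276786, minus strand), which encodes TRIF, rose in both experiments. It was at 19.2, 18.1 and 19.0 CPM in the controls for nApoE4 and at 44.5, 46.9 and 44.8 CPM with nApoE4. It was at 11.6, 11.6 and 11.5 CPM in the controls for nApoE3 and at 29.3 and 30.5 CPM with nApoE3. Although the nApoE3 experiment ran at a lower level throughout, the rise was 2.43-fold with nApoE4 (log2 1.28, SE 0.059, edgeR adjusted p = 9.01e-08) and 2.57-fold with nApoE3 (log2 1.36, SE 0.043, edgeR adjusted p = 3.46e-11). No annotated gene shares its exons.

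Ticam2 (chromosome 18, 46557291 to 46574533, minus strand), which encodes TRAM, the bridge between TLR4 and TRIF, was the gene of the 10 that rose with one fragment and fell with the other. It was at 14.4, 14.3 and 13.8 CPM in the controls for nApoE4 and at 29.9, 31.4 and 33.8 CPM with nApoE4. It was at 26.7, 27.4 and 27.1 CPM in the controls for nApoE3 and at 16.3 and 15.6 CPM with nApoE3. All samples treated with nApoE4 were above every control of either experiment, and both samples treated with nApoE3 lay between the 2 sets of controls. Ticam2 rose 2.25-fold with nApoE4 (log2 1.17, SE 0.068, edgeR adjusted p = 4.50e-07) and fell 1.70-fold with nApoE3 (log2 -0.77, SE 0.042, edgeR adjusted p = 7.39e-09).

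Ticam2 shares 838 exonic bases, 19.9% of its exonic length, with Tmed7 on the same strand, so some reads of the pair cannot be assigned to either gene. Tmed7, a cargo receptor of the secretory pathway, was therefore read beside it after the values of Ticam2 had been seen. It was at 112, 119 and 112 CPM in the controls for nApoE4 and at 125, 121 and 133 CPM with nApoE4, with a log2 fold change of 0.16 (SE 0.060, edgeR adjusted p = 0.0505). It was at 232, 241 and 237 CPM in the controls for nApoE3 and at 257 and 265 CPM with nApoE3, with a log2 fold change of 0.13 (SE 0.025, edgeR adjusted p = 5.06e-04). Tmed7 thus did not show the opposite movements of Ticam2, and its controls differed by 1.04 on the log2 scale (SE 0.045, edgeR adjusted p = 8.86e-07) in the direction in which those of Ticam2 differed. The part of the shared exons in the counts of Ticam2 was not tested.

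Promoter sequences are given for the members that moved together. RefSeq windows of GRCm38.p6, from 250 bases before to 50 bases after the annotated start, were found for 7 of the 10 genes, as 10 windows: Myd88, Tirap, Ticam1, Irak1, Irak2, Irak3 and Irak4. They were searched on both strands for the NF-kB consensus of 10 letters, the interferon-response core of 10 letters (GAAA, 2 letters of any kind, GAAA) and the AP-1 motif TGANTCA, which occur in 8.46%, 3.44% and 7.81% of 32851 promoter windows of the same length. Of the 6 genes that rose with both fragments, 4 have an entry and 1 window of each is printed below, for Irak3 1 of its 2, with 1 of the 2 windows of Irak1, which holds the NF-kB match. Capitals mark the matches, each sequence runs 5′ to 3′ on the strand of its gene, and its place is chr9:119339969-119340268 (minus) for Myd88, chr17:56276718-56277017 (minus) for Ticam1, chr6:113638217-113638516 (plus) for Irak2, chr10:120202081-120202380 (minus) for Irak3 and chrX:74023869-74024168 (minus) for Irak1.
Myd88: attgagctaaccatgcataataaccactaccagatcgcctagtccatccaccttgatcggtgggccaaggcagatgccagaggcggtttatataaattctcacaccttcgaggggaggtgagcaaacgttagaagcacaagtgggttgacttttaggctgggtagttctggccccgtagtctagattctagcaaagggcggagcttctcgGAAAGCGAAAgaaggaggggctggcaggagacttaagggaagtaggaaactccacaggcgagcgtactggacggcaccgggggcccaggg
Ticam1: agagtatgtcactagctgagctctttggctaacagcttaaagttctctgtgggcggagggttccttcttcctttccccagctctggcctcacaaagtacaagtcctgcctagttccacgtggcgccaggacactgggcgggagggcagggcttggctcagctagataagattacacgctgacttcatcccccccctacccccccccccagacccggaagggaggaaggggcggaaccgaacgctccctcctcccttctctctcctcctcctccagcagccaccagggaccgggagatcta
Irak2: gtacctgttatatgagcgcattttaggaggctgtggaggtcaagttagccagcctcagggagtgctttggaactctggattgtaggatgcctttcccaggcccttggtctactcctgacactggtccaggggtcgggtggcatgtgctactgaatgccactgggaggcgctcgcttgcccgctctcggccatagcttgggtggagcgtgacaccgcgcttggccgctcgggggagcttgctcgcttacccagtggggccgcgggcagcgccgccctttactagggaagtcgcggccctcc
Irak3: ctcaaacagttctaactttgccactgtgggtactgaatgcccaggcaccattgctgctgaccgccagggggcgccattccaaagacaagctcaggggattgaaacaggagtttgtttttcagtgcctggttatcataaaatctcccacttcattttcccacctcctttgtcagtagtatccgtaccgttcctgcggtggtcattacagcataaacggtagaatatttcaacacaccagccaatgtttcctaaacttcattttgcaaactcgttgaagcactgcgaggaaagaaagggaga
Irak1: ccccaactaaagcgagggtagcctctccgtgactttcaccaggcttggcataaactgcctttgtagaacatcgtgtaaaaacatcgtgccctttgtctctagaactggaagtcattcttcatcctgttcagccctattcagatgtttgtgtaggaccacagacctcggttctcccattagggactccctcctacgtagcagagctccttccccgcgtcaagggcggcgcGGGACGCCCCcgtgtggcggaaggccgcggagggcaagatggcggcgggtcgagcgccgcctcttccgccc
Myd88 held an interferon-response core 40 to 31 bases before its start. Irak1, whose response was the smallest of the 10, held an NF-kB match 21 to 12 bases before its start. The windows of Ticam1, Irak2 and Irak3, which rose 2.43- to 7.39-fold, held none of these letters, nor did those of Tirap and Irak4, which says only that the motifs are not written in these bases.

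**Figure D2:**
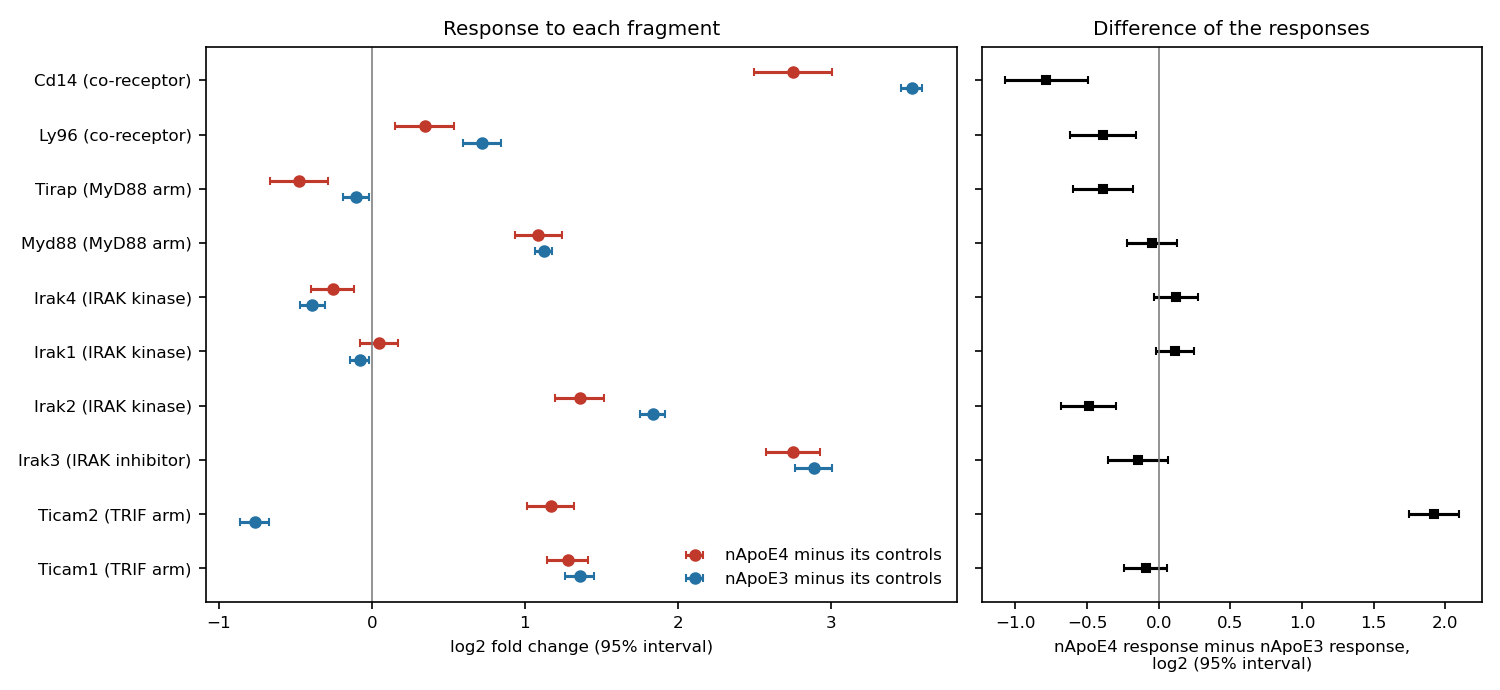
Left, log2 fold change of each of the 10 genes with nApoE4 (red) and nApoE3 (blue) against their own controls; right, the nApoE4 response minus the nApoE3 response, both on a log2 x axis with 95% intervals from the edgeR fits. Ticam2 stands at 1.17 and -0.77 on the left and at 1.92 on the right, while the intervals of Myd88, Ticam1, Irak1, Irak3 and Irak4 on the right include 0.

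To ask whether the fragments differed, the nApoE4 response minus the nApoE3 response was tested over all 11 samples. It passed for 5 of the 10 genes, 1 higher and 4 lower with nApoE4, where 28.3% of 15287 genes were called, 14.4% higher and 13.9% lower. Ticam2 differed most, by 1.92 on the log2 scale (SE 0.081, edgeR adjusted p = 8.65e-09), a 3.79-fold difference of the responses that lay above those of 98.6% of all genes. The other 4 responses were smaller, or more negative, with nApoE4: Cd14 by -0.79 (95% interval -1.08 to -0.50, edgeR adjusted p = 7.28e-04), Irak2 by -0.49 (-0.68 to -0.29, adjusted p = 0.00121), Tirap by -0.39 (-0.60 to -0.18, adjusted p = 0.00876) and Ly96 by -0.39 (-0.62 to -0.16, adjusted p = 0.0161). The call of Ly96 was lost without replicate 2 of nApoE3 (edgeR adjusted p = 0.0879).

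The other 5 genes did not pass this test, and their intervals bound what a difference could be. On the log2 scale the difference was -0.046 for Myd88 (95% interval -0.22 to 0.13, edgeR adjusted p = 0.721), -0.090 for Ticam1 (-0.24 to 0.060, adjusted p = 0.378) and -0.14 for Irak3 (-0.35 to 0.065, adjusted p = 0.305). It was 0.12 for Irak1 (-0.016 to 0.25, adjusted p = 0.185) and 0.12 for Irak4 (-0.030 to 0.27, adjusted p = 0.224). For Myd88 and Ticam1, the signalling adaptors of the MyD88 and TRIF arms, the bounds farthest from 0 were -0.22 and -0.24.

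Side by side, the 6 genes of the MyD88 arm (Tirap, Myd88 and the IRAK family) gave 3 that rose, 2 that fell and 1 not called with nApoE4. With nApoE3, 3 rose and 3 fell. Over all genes tested, 28.6% rose and 28.6% fell with nApoE4, and 33.1% and 34.6% with nApoE3. The falls of Tirap (log2 -0.10) and Irak1 (-0.079) with nApoE3 were not called in 9 and 7 of 11 alternatives. The median log2 fold changes of the 6 genes were 0.57 and 0.52. The TRIF arm, with Ticam2 and Ticam1, gave 2 of 2 that rose with nApoE4 (median 1.22), and 1 that rose and 1 that fell with nApoE3 (median 0.30). In the MyD88 arm the bridging adaptor Tirap was below its controls beside a rising Myd88, and in the TRIF arm the bridging adaptor Ticam2 took opposite signs beside a rising Ticam1. With 2 genes in the TRIF arm, these medians are a description of those genes.

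Untreated cells of the experiments already differed in all 10 genes. Between the 2 sets of controls 5 genes were higher and 5 lower in the nApoE3 experiment, where 69.3% of 14249 genes were called (34.4% higher, 34.9% lower), and for 10 of 10 the control samples did not overlap (74.1% of all genes). Ticam2 was 1.89-fold higher (log2 0.92, SE 0.048, edgeR adjusted p = 1.83e-06) in the controls for nApoE3. Higher there, too, were Irak4 (log2 0.36), Irak3 (0.29), Myd88 (0.25) and Tirap (0.24), while Cd14 (-0.83), Irak2 (-0.75), Ticam1 (-0.71), Irak1 (-0.62) and Ly96 (-0.44) were lower, with edgeR adjusted p of at most 0.0236, that of Irak3. The call of Irak3 was lost without replicate 1 of the nApoE4 controls (edgeR adjusted p = 0.0743) or replicate 3 of the nApoE3 controls (adjusted p = 0.0795).

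Cd14 and Ly96 reached overlapping ranges in the treated groups of both experiments, from controls that were 1.78- and 1.36-fold lower in the nApoE3 experiment. Of the other 8 genes, 4 were higher and 4 lower with nApoE4 than with nApoE3 in every treated sample. That share was not counted over all genes, and the controls already did not overlap for 74.1% of them. The count therefore says little about these 8. Ticam2 was the gene whose order turned: it was lower in the nApoE4 experiment before treatment, at a mean of 14.2 CPM ± 0.31 (SD, n = 3) against 27.1 ± 0.30 (n = 3), and higher after it, at 31.7 ± 1.94 (n = 3) against 16.0 ± 0.51 (n = 2). The part of the baselines in the differences of the responses was not tested.

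**Figure D3:**
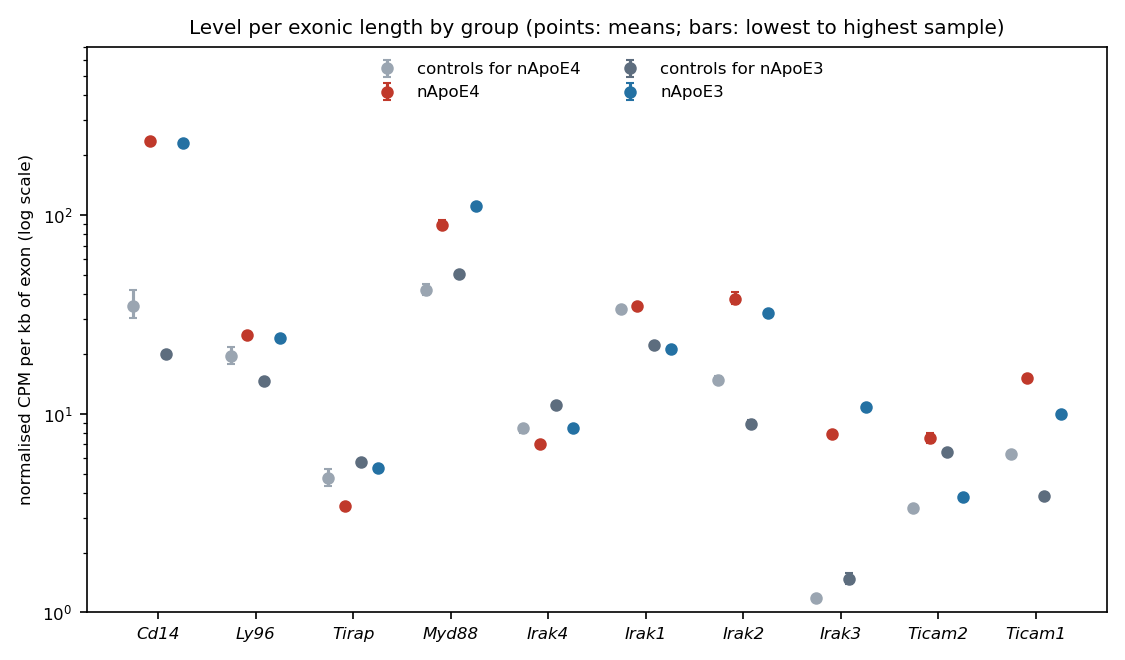
Mean normalised CPM per kb of exon (y axis, log scale) of the 10 genes on the x axis in the 4 groups, with bars from the lowest to the highest sample. Cd14 stands at 235 and 230 in the treated groups, above Myd88 at 89.3 and 111, and Irak3 is lowest in both sets of controls at 1.18 and 1.47.

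Levels between genes were compared per kb of exon. The length of each gene includes bases shared with other genes, 19.9% of it for Ticam2. Its level and its place may therefore be understated. In the controls for nApoE4, Myd88 stood first at 42.1 CPM per kb ± 2.78 (SD, n = 3), Cd14 followed at 35.0 ± 6.01 and Irak1 at 33.6 ± 1.03, and neighbours among these 3 overlapped. Ly96 (19.6), Irak2 (14.8), Irak4 (8.47), Ticam1 (6.27), Tirap (4.77), Ticam2 (3.37) and Irak3 (1.18 CPM per kb) came next, with no overlap between neighbours. In the controls for nApoE3, Myd88 again stood first (50.5) and Irak3 last (1.47), but Ticam2 (6.44) stood above Ticam1 (3.87).

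Following treatment, Cd14 was first in both groups, at 235 ± 7.76 CPM per kb (n = 3) with nApoE4 and 230.1 ± 2.57 (n = 2) with nApoE3, and Myd88 was the next at 89.3 ± 4.61 and 111 ± 3.38. Irak2 moved up to the third place in both, at 37.8 ± 2.91 with nApoE4. With nApoE4, Irak3 (7.93), Ticam2 (7.54) and Irak4 (7.07) followed Ticam1 (15.2), each overlapping its neighbour among these 3, and Tirap was last (3.42). With nApoE3, Irak3 (10.9) stood above Ticam1 (9.99), Irak4 (8.45) and Tirap (5.35), and Ticam2 was last (3.80 CPM per kb). By this measure Ticam2 was the lowest of the 10 after nApoE3 and the lowest but 1 in the controls for nApoE4. The part of the exons shared with Tmed7 in these places was not tested.

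A list of 12 genes around the receptor held Tlr4 and Tmed7, given above, with co-receptors, relatives of TLR4 and the chaperones that bring it to the surface. With nApoE4, 1 rose, 6 fell and 5 were not called (median log2 fold change -0.33). With size factors in place of TMM, and with the stricter filter, 8 were called in place of 7. Tmed7 was near the threshold in the main fit (log2 0.16, edgeR adjusted p = 0.0505). With nApoE3, 5 rose, 6 fell and 1 was not called (median -0.052). Tlr4 is among those that fell with each. Over all genes tested, 28.6% rose and 28.6% fell with nApoE4, and 33.1% and 34.6% with nApoE3. These shares stand beside the counts of this list and of those below. Tlr2, the receptor of bacterial lipoproteins, also signals through TIRAP and MyD88. It was the one of the 12 called higher with nApoE4 in the main fit. It went from 146 ± 12.8 CPM (n = 3) to 926 ± 33.4 (n = 3) with nApoE4 (log2 2.67, SE 0.081, edgeR adjusted p = 5.31e-09) and from 214 ± 22.9 (n = 3) to 1208 ± 27.7 (n = 2) with nApoE3 (log2 2.49, SE 0.060, edgeR adjusted p = 3.08e-12).

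**Figure D4:**
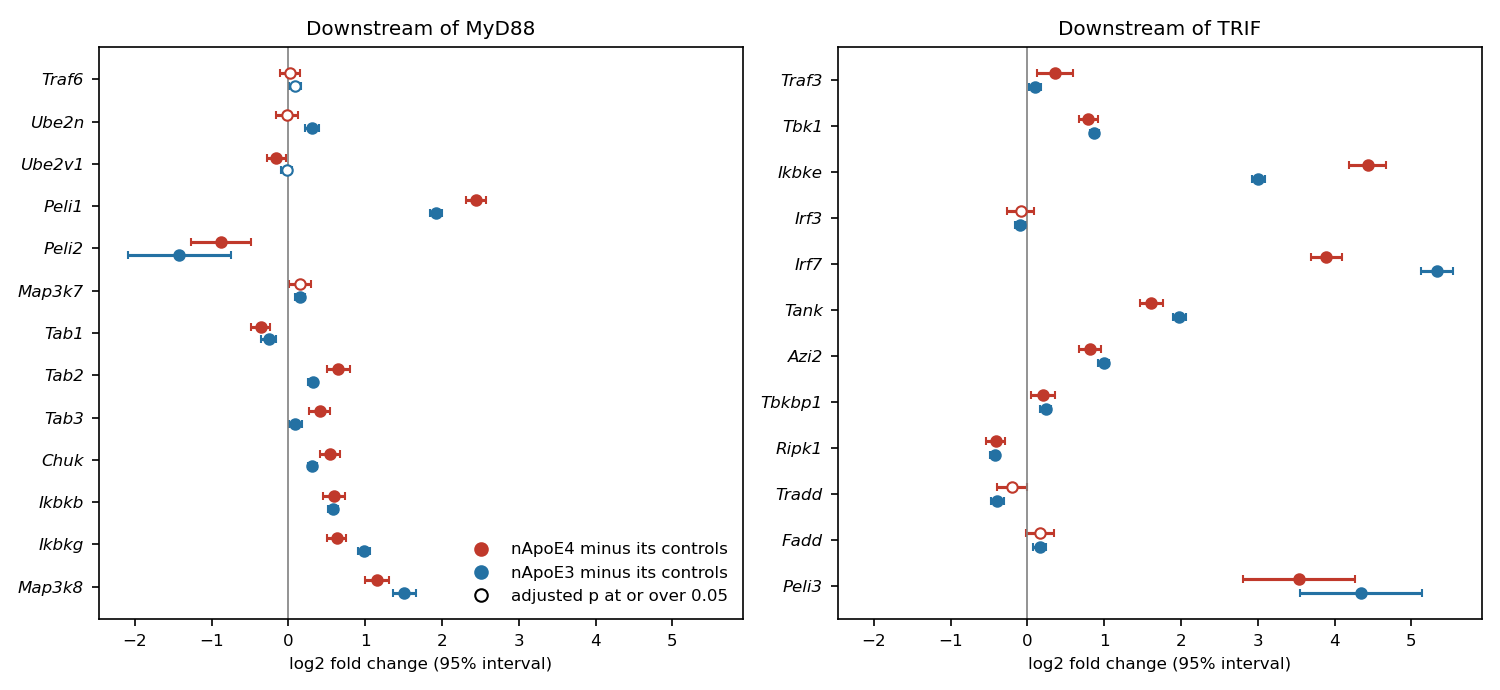
Log2 fold change (x axis, with 95% intervals) of the genes downstream of MyD88 (left) and of TRIF (right) with nApoE4 (red) and nApoE3 (blue), open points not called. Traf6, Map3k7 and Irf3 lie near 0, and Peli1, Ikbke, Irf7 and Tank lie above 1 with both fragments.

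Downstream of MyD88, 7 of 13 genes rose and 3 fell with nApoE4 (median log2 0.41), and 9 rose and 2 fell with nApoE3 (median 0.31). Traf6, the ubiquitin ligase that the IRAK complex activates, was not called with nApoE4 (log2 0.020, edgeR adjusted p = 0.797) or nApoE3 (0.086, adjusted p = 0.0571). Map3k7 (TAK1), the kinase after it, had log2 values of 0.15 with both, with edgeR adjusted p of 0.0651 and 5.47e-04. Peli1, a ubiquitin ligase that acts on IRAK1 and RIP1, rose from 59.7 to 324 CPM with nApoE4 (log2 2.45, adjusted p = 1.38e-09) and from 76.3 to 289 CPM with nApoE3 (log2 1.92, adjusted p = 2.73e-13). Map3k8 (TPL2), the kinase that leads to ERK in macrophages, rose by 1.16 and 1.51 on the log2 scale.

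Downstream of TRIF, 8 of 12 genes tested rose and 1 fell with nApoE4 (median log2 0.58). With nApoE3, 9 rose and 3 fell (median 0.56). Peli3, named after its values were seen, is among those that rose, from means of 0.234 and 0.0474 CPM in the controls. It passed the filter through the treated samples and had to differ, so its rise is not read as a result. With at least 10 counts in every sample, 8 genes of the list were called with nApoE4. Ripk3, looked up after its value was seen, was at 0 counts in all libraries. It lies within another annotated gene, Gm32092, so that the 0 is no measure of its level. Traf3, the ubiquitin ligase at TRIF, rose by 0.36 with nApoE4 (edgeR adjusted p = 0.0152) and by 0.10 with nApoE3 (adjusted p = 0.0224). Tbk1, the kinase of IRF3, rose by 0.79 and 0.87 on the log2 scale (adjusted p = 1.52e-06 and 2.13e-11), and its relative Ikbke rose by 4.43 and 3.01 (adjusted p = 1.46e-09 and 2.45e-14). The scaffold Tank rose by 1.61 and 1.98. Irf3 had log2 fold changes of -0.088 with nApoE4 (adjusted p = 0.355) and -0.090 with nApoE3 (adjusted p = 0.0280), and Irf7, the interferon-induced factor, went from 3.32 to 49.2 CPM with nApoE4 and from 3.92 to 156 CPM with nApoE3.

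Among 13 negative regulators of the pathway, 8 rose and 4 fell with nApoE4 (median log2 0.35). Of the 12 tested with nApoE3, 8 rose and 4 fell (median 0.37). Sigirr, named after its values were seen, fell with nApoE4, to a mean of 0.218 CPM. It passed the filter through the controls and had to differ, so its fall is not read as a result. Tnfaip3 (A20), which removes ubiquitin chains from TRAF6 and other proteins, rose by 3.71 and 4.07 on the log2 scale (edgeR adjusted p = 4.23e-10 and 2.23e-13). Zc3h12a (Regnase-1), an RNase of cytokine transcripts, rose by 1.99 and 2.61, Usp25 by 1.16 and 1.19 and Tollip, which binds IRAK1 at rest, by 0.38 and 0.46 (adjusted p = 4.19e-04 and 4.72e-09). Il1rl1 (ST2), a receptor that can take up MyD88 and TIRAP, fell by 1.56 and by 1.11 on the log2 scale. Beside Irak3, these negative regulators of the pathway therefore held both small and large changes.

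The target genes usually read out for each arm lay far above the adaptors in their response. Of 10 MyD88 readouts, 5 held at least 10 counts in every sample of both experiments (Il1b, Cxcl2, Nfkbia, Nfkbiz and, named after its values were seen, Ptgs2), and all 5 rose with each fragment. Of the other 5, those that passed the filter did so through the treated samples alone and had to differ, so no count is read from them. Of 10 TRIF readouts, 4 held that many counts (Rsad2, Gbp2, Ifit2 and Irf7, which is also in the list downstream of TRIF), and all 4 rose with each fragment. Il1b went from 1.03 to 223 CPM with nApoE4 and from 1.99 to 359.6 CPM with nApoE3. The chemokine gene Cxcl2 went from 0.535 to 268 CPM and from 0.872 to 257 CPM. Nfkbia and Nfkbiz, of the IkB family, rose by 3.41 and 4.02 with nApoE4 and by 2.70 and 3.75 with nApoE3 on the log2 scale. Among the TRIF readouts, Rsad2 went from 1.09 to 117 CPM and from 5.87 to 901 CPM, Gbp2 from 1.43 to 304 and from 1.58 to 260 CPM, and Ifit2 from 9.14 to 89.7 and from 27.1 to 524 CPM.

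Tnf and Ifnb1, the classical products of the arms, stayed low in CPM. Tnf was at 0.0381 CPM in the controls for nApoE4 and 1.36 with nApoE4, and at 0.0219 and 1.94 CPM in the nApoE3 experiment. Ifnb1 was at 0.0292 and 0.995 CPM, and at 0.105 and 1.28 CPM. In most of these controls the level is 3 counts or fewer, so that no fold is given. Cxcl10 and Ccl5 were at 0 counts in all 11 libraries, and each lies within another annotated gene, Art3 and Gm32650, which held up to 173 and 243 counts. Whether reads of these chemokines were set aside because of the overlap was not tested, so the 0 is no measure of their level. Overlaps of Tnf and Ifnb1 with other genes were not looked up, and whether their low CPM measures their level was not tested.

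The genes most alike in pattern to each of the 10 were ranked by Pearson's r over the 11 samples, on log2 CPM centred on the mean of the own controls, among 7043 genes of at least 32 CPM in some group. The 11 points share their controls and their experiment within each set, and r is a description. For Ticam2 they were Rap2b (0.994), Map3k4 (0.989) and Smim13 (0.989), and 61 genes lay above an r of 0.95. The genes that rose with both fragments had many more: 694 for Cd14, led by Vasp, Tor3a and Stap1; 781 for Myd88, led by Sbds, Marcksl1 and Tpm4; 776 for Ticam1, led by Ppfibp2, Nlrp3 and Alcam; 614 for Irak2, led by Zc3h12a, Klf6 and Tnfrsf1b; and 796 for Irak3, led by Nlrp3, Cybb and Tnfaip3. For Irak4 the nearest were Scarb2, Ubr7 and Aes. Ly96 had 178 (Spic, Esd and Ms4a6c) and Tirap 90 (Bach1, Akap10 and Itpk1). Irak1 had 0, and its nearest genes were Taf1 (0.933), Ppp1r21 (0.927) and Ubr2 (0.920).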

How the data were processed

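RNA from 11 BV2 samples was sequenced by the authors as single-end reads. They trimmed the reads with Trim Galore 0.5.0, checked them with FastQC 0.11.8, mapped them to GRCm38.p6 with HISAT2 2.1.0 and counted them on genes with HTSeq 0.11.0. The authors deposited raw counts per gene for each sample, without normalization. The annotation release, the strand setting and the overlap mode are not given in the sources used here. Tallies of reads that were not counted on a gene were left out, and 76.0 to 77.7% of the tallied reads were on genes. The deposited files give gene symbols alone, so positions and exonic lengths were taken from GENCODE M21 and RefSeq on GRCm38.

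The analysis used edgeR 4.0.16 in R 4.3.3 (filterByExpr, TMM normalization, glmQLFit and glmQLFTest), with Benjamini-Hochberg adjustment over all genes tested and a threshold of 0.05. An approximate SE was taken as the absolute log2 value over the root of F. CPM were scaled by TMM over all 11 samples. Treated samples were set against the controls of their own experiment, an interaction over 4 group means gave the difference of the responses, and the sets of controls were compared with each other. Groups and replicate numbers came from the labels. The paper speaks of independent measurements and trials, without saying whether the replicates were separate cultures on separate days. The p-values therefore measure the spread between these samples, which may be technical. The 95% intervals come from the edgeR fits and include the spread between these samples. Floors taken from counts cover counting error only.

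The 10 genes, the lists of pathway genes and the marker lists were chosen with earlier results of these data known. Named besides the 10 were Tlr4, Traf6, Map3k7, Traf3, Tbk1, Irf3, Irf7, Ifnb1, Tnf, Il1b, Cxcl10, Ccl5, Tollip and Tnfaip3, and per list up to 3 more genes of the highest mean CPM called with both fragments at a log2 fold change beyond 1 in size, and per member the 3 genes of the highest r. Scripts were tested on simulated data. The alternatives were the Wald test of DESeq2 1.42.0, size factors in place of TMM, a looser filter (1 count in any sample), a stricter filter (10 counts in each sample), 1 fit of the 11 libraries, a replicate block and omission of single replicates. Promoter windows came from RefSeq.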

Additional observations from a re-analysis of the deposited data

Results flagged for a closer look

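The responses to nApoE4 and nApoE3 differed for 5 of the 10 genes by the interaction test in edgeR, where 28.3% of all genes tested were called. The difference, nApoE4 minus nApoE3, was 1.92 on the log2 scale for Ticam2, -0.79 for Cd14, -0.49 for Irak2, -0.39 for Ly96 and -0.39 for Tirap. Ticam2 was above its controls in 3 of 3 samples with nApoE4 and below them in 2 of 2 with nApoE3. Cd14, Irak2 and Ly96 rose in every treated sample of either experiment and rose less with nApoE4, and Tirap was lower in every treated sample and fell further with nApoE4. The fragments were tested in separate experiments whose controls differed in all 10 genes, these 5 included.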

How the results depend on the processing

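Of 500 values of the 10 genes under the alternatives, 478 kept their direction and their side of the threshold, 21 were no longer called and 1 changed sign. That 1 was the difference between the fragments for Myd88, which was not called and ranged from -0.088 to 0.0081 when each replicate was left out, the latter without replicate 2 of the nApoE4 controls (adjusted p = 0.939). With nApoE4, 9 of the 10 genes were called under all 12 alternatives. With nApoE3 the count was 8 to 10, with adjusted p of 0.0397 to 0.285 for Tirap and 0.0139 to 0.204 for Irak1 across the alternatives. For the difference between the fragments it was 4 to 5 when each replicate was left out, and for the controls 9 to 10. Same-numbered samples deviated from their group means with correlations of -0.172 to -0.00792 over 15287 genes. No treated sample correlated best with the control of its own number. Deviations within groups of 2 or 3 samples are tied to each other, so these correlations cannot decide whether the numbers pair the samples. With the replicate number as a block, the genes called among the 10 went from 5 to 3 for the difference between the fragments (Ly96, adjusted p = 0.0966, and Tirap, adjusted p = 0.0583, were lost), and the calls over all genes went from 4331 to 2307. With the block, calls over all genes went from 8145 to 7036 for nApoE4 and from 10034 to 9783 for nApoE3. No block was fitted between the controls, which come from separate experiments. When each sample had to hold 10 counts, 5 MyD88 readouts were called with nApoE4 and 5 with nApoE3, since fewer of them were tested. With 2 samples treated with nApoE3, leaving out either leaves 1, which is assumed to vary like the controls.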
